A study of Homo sapiens with 6 samples.

Results

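TRH encodes the precursor of thyrotropin-releasing hormone, and it was set here beside the enzymes that turn prohormones into active peptides: the convertases PCSK1, PCSK2 and FURIN, the carboxypeptidase CPE, the amidating enzyme PAM and the glutaminyl cyclases QPCT and QPCTL. The 8 genes were found by symbol, through the Ensembl identifiers of the deposited table, among 34371 features in all. TRH was chosen by its rise between the groups in these same libraries, so its values are given as a description with no test. The 7 enzymes were listed for what they do, with earlier results of these data known. The groups were ME-1 cells transduced with a vector for overexpression of SPNS2, which carries sphingosine-1-phosphate out of cells (3 libraries), and ME-1 cells transduced with the control empty vector (3 libraries). Infected cells of both groups were selected before polyadenylated RNA was taken and sequenced. The ME-1 line comes from a human acute myeloid leukaemia and has the CBFB::MYH11 fusion, shared by both groups. Whether replicate libraries were separate cultures is not stated, so p-values measure only the spread between these libraries, which may be technical.

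Thyrotropin-releasing hormone is a tripeptide best known from the hypothalamus, where it drives the release of thyrotropin and prolactin from the pituitary. Its precursor is cut by convertases at pairs of basic residues, a carboxypeptidase removes those residues, PAM turns the exposed glycine into an amide, and a glutaminyl cyclase closes the first glutamine into pyroglutamate. In endocrine cells and neurons the cuts are made mainly by PCSK1 and PCSK2 in secretory granules, whereas FURIN works in the trans-Golgi network of most cells. RNA levels do not show whether a peptide was made.

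The sequence that these enzymes act on is repeated within the TRH gene, and its copies are shown because each one holds the signal for every processing step. In the GENCODE 29 transcript of TRH (build GRCh38, chromosome 3, plus strand), in-frame codons for Gln-His-Pro-Gly occurred 6 times within 242 codons. All 6 copies lay in coding sequence of exon 3 of 3, and all 6 had a pair of codons for basic residues on either side. Capitals mark the codons for Gln-His-Pro-Gly, and lower case marks the flanking basic pairs.
Copy 1, chr3:129976731-129976754: aaacgtCAGCATCCAGGCaaaaga
Copy 2, chr3:129976821-129976844: aaacggCAGCACCCTGGCcgacga
Copy 3, chr3:129976884-129976907: aagcggCAGCATCCTGGCcggcgc
Copy 4, chr3:129976935-129976958: aagcggCAGCACCCAGGCagaagg
Copy 5, chr3:129977037-129977060: aaacgcCAGCATCCGGGCaagagg
Copy 6, chr3:129977160-129977183: aagcggCAGCACCCTGGTcggcgg
No 2 copies were alike in their bases, although all spell the same tetrapeptide.

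The libraries held between 28605187 and 38489992 counts. Vector SPNS2 has a row of its own and stood at 778 ± 12.9 CPM (counts per 1000000 of the scaled library total) in the SPNS2 libraries and at 0.113 ± 0.117 CPM with the empty vector (SD, n = 3 each), so the labels held. All 11 myeloid blast markers averaged at least 1 CPM, AZU1 through 1 library alone, with a summed level of 28600 to 30000 CPM in the SPNS2 libraries and 28700 to 29300 CPM in the empty vector libraries. That sum was mostly MPO, a primary granule enzyme, at 26000 CPM with SPNS2 and 26100 CPM with the empty vector, while other markers differed. By edgeR, KIT and PTPRC were higher with SPNS2 (0.55 and 0.26 on the log2 scale, adjusted p = 3.68e-08 and 0.00056), and CD33 and CD34 were lower (-0.71 and -0.25, adjusted p = 2.45e-06 and 0.000397). These 4 calls passed in all 6 fits without a library, whereas PRTN3 (-0.17, edgeR adjusted p = 0.0289) passed in 1 of those 6, the one without empty vector library 1 (the other edgeR adjusted p were 0.0574 to 0.113). The part of these markers in the results was not tested. Of 8 neuroendocrine or neuronal markers, SYP and ENO2 averaged at least 1 CPM, and CHGA and STMN2 were among those listed at 0. Their summed level was 4.62 to 5.58 CPM in the SPNS2 libraries and 6.32 to 7.45 CPM in the empty vector libraries, a difference that came from ENO2 (3.07 CPM with SPNS2 and 4.71 CPM with the empty vector, edgeR adjusted p = 0.0087). SYP was at 2.09 CPM with SPNS2 and 2.05 CPM with the empty vector, and INSM1 had 2, 3 and 2 counts with SPNS2, against 1, 1 and 0 counts with the empty vector. The lymphoid and erythroid lists summed to at most 3.32 and 0.682 CPM in any library. The epithelial list, nearly all EPCAM, summed to 141 to 144 CPM in the SPNS2 libraries and 119 to 128 CPM in the empty vector libraries, and its part in the results was not tested. In bulk RNA, more cells that express a gene and more RNA per cell cannot be told apart.

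TRH (ENSG00000170893.4) was already abundant in the control cells and stood far higher with SPNS2. Its level was 304, 306 and 304 CPM in the SPNS2 libraries, from 9863, 9611 and 10254 counts. In the empty vector libraries it was 107, 114 and 119 CPM, from 4138, 3248 and 3835 counts. The lowest SPNS2 library lay above the highest empty vector library by a wide margin. The groups did not overlap, as for 40.1% of all features. The means were 305 ± 1.04 CPM with SPNS2 and 113 ± 5.87 CPM with the empty vector (SD, n = 3 each), a fold change of 2.69 and a log2 fold change of 1.43. The coefficient of variation was 0.34% in the SPNS2 libraries and 5.17% in the empty vector libraries. Each rests on 3 values, and whether the spread differed between groups was not tested. By upward log2 fold change TRH ranked 37 of 13308 features tested. Without each library in turn the estimate was 1.39 to 1.46, which the choice of TRH in these libraries keeps from being a check of its rise.

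**Figure D1:**
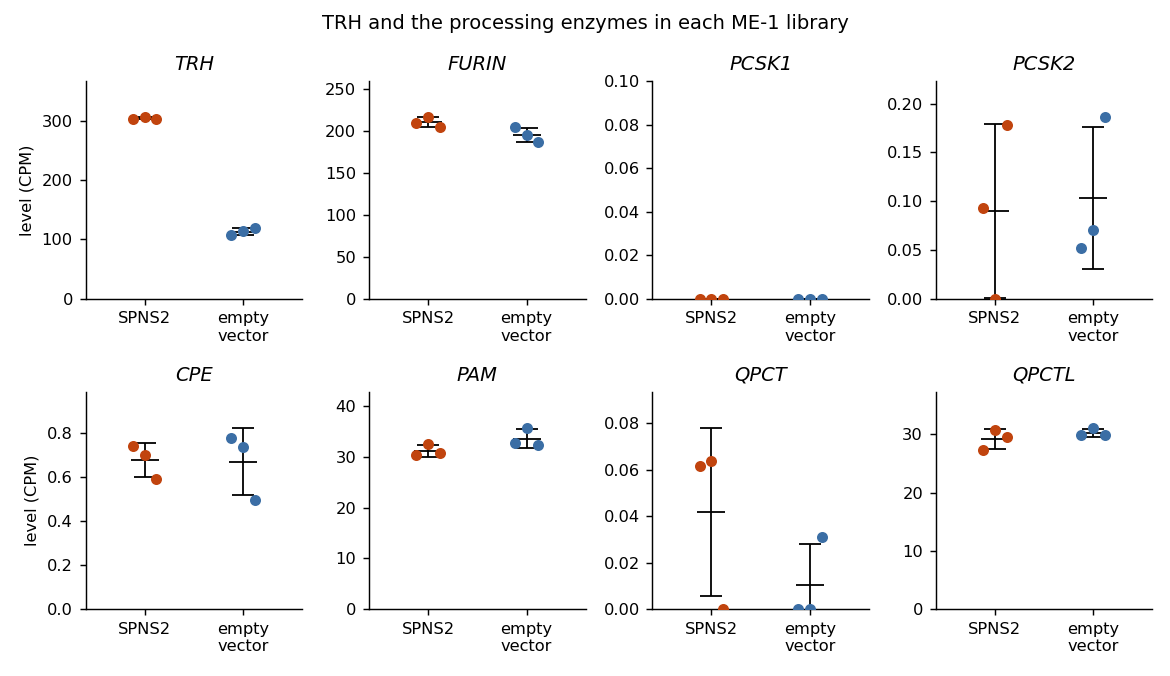
Level in CPM (linear axes from 0, a separate scale in each panel) of TRH and the 7 enzymes in each library, with SPNS2 libraries to the left and empty vector libraries to the right of each panel. Points are libraries, and black bars are mean ± SD of 3. TRH stands at 304 to 306 CPM with SPNS2 and 107 to 119 CPM with the empty vector, while the 7 enzyme panels show no comparable gap.

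None of the enzymes was called changed beside this rise. Of 7 enzymes, 4 passed the filter on low counts and were tested, and 0 passed an adjusted p of 0.05 by the edgeR quasi-likelihood test. Across all features that test called 24.5%. At an unadjusted p of 0.05 edgeR had 1 enzyme, FURIN, against 36.2% of all features, and DESeq2 and limma voom each called FURIN as well, against 19.1% and 24.3% of all features. The median log2 fold change was -0.02 over the 4 enzymes and 0.0026 over all 13308 features.

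FURIN, the convertase of the constitutive secretory route, had the highest level per transcript length of the enzymes and lay at the edge of the threshold. It had 209, 216 and 205 CPM in the SPNS2 libraries, against 204, 195 and 187 CPM in the empty vector libraries. The groups did not overlap, but the nearest libraries, SPNS2 library 3 and empty vector library 1, were about level; 40.1% of all features had groups that did not overlap. Its log2 fold change was 0.10 (SE 0.0346, 95% interval 0.03 to 0.18, adjusted p = 0.051 by edgeR), with means of 210 ± 5.80 CPM with SPNS2 and 195 ± 8.24 CPM with the empty vector (SD, n = 3 each). The adjusted p was 0.0268 with DESeq2, 0.0476 with limma voom and 0.0132 without empty vector library 1, and 0.187 without empty vector library 3.

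PCSK1 and PCSK2, the convertases of regulated secretory granules, were at or near 0 in both groups. PCSK1 was listed at 0 counts in all 6 libraries. Taking a 0 to allow 3 counts, the limit was 0.0308 CPM over the pooled SPNS2 libraries and 0.0301 CPM over the empty vector ones. The upper ends of exact 95% Clopper-Pearson intervals were 0.0379 and 0.0371 CPM. PCSK2 had 3, 0 and 6 counts in the SPNS2 libraries, against 2, 2 and 6 counts in the empty vector libraries. Pooled over libraries that is 0.0925 CPM with SPNS2 (exact 95% Clopper-Pearson interval 0.0423 to 0.176) and 0.1 CPM with the empty vector (0.0482 to 0.185), so no difference was detectable at this depth. Such limits cover counting error only. A listed 0 does not by itself show that a transcript is missing, since RXRB, a receptor gene used by most cells, was also listed at 0 in all 6 libraries.

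CPE, the granule carboxypeptidase that trims basic residues, was just above the filter. It had 24, 22 and 20 counts in the SPNS2 libraries, against 30, 21 and 16 counts in the empty vector libraries. The groups overlapped, at 0.678 ± 0.0761 CPM with SPNS2 and 0.671 ± 0.152 CPM with the empty vector (SD, n = 3 each). The 95% interval of its log2 fold change ran from -0.58 to 0.60, so that a change of up to about that size in either direction was not resolved.

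PAM, the copper enzyme that makes the C-terminal amide, was well measured. Its level was 30.3, 32.5 and 30.6 CPM in the SPNS2 libraries, against 32.6, 35.6 and 32.3 CPM in the empty vector libraries. The groups overlapped, because SPNS2 library 2 lay among the empty vector libraries. The log2 fold change was -0.10 (SE 0.0491, 95% interval -0.21 to 0.00, adjusted p = 0.153 by edgeR).

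The pair of glutaminyl cyclases differed in level. QPCT, the secreted form that acts on hormones, had 2, 2 and 0 counts in the SPNS2 libraries and 0, 0 and 1 counts in the empty vector libraries, too few to compare. QPCTL, the Golgi-resident form, had 27.3, 30.7 and 29.5 CPM in the SPNS2 libraries, against 29.9, 31.1 and 29.9 CPM in the empty vector libraries. The groups overlapped, with a log2 fold change of -0.05 (SE 0.0497, 95% interval -0.16 to 0.05, adjusted p = 0.473 by edgeR).

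Scaled to the length of the longest GENCODE 29 transcript, which allows genes to be compared, the members took the order TRH, FURIN, QPCTL, PAM, CPE. TRH was at 154 ± 0.523 CPM per kb with SPNS2 and 57.4 ± 2.97 with the empty vector (SD, n = 3 each). FURIN was at 48.3 ± 1.33 CPM per kb with SPNS2 and 44.9 ± 1.90 with the empty vector (SD, n = 3 each). QPCTL was at 12.6, PAM at 5.73 and CPE at 0.28 CPM per kb with SPNS2, against 13.1, 6.16 and 0.277 CPM per kb with the empty vector. PCSK2 and QPCT lay below 0.03 CPM per kb in either group and were not separated by their spread, and PCSK1 was listed at 0. Scaled to coding length, TRH was at 420 and FURIN at 88 CPM per kb with SPNS2, against 156 and 81.9 with the empty vector, and the order of these 5 genes was the same.

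**Figure D2:**
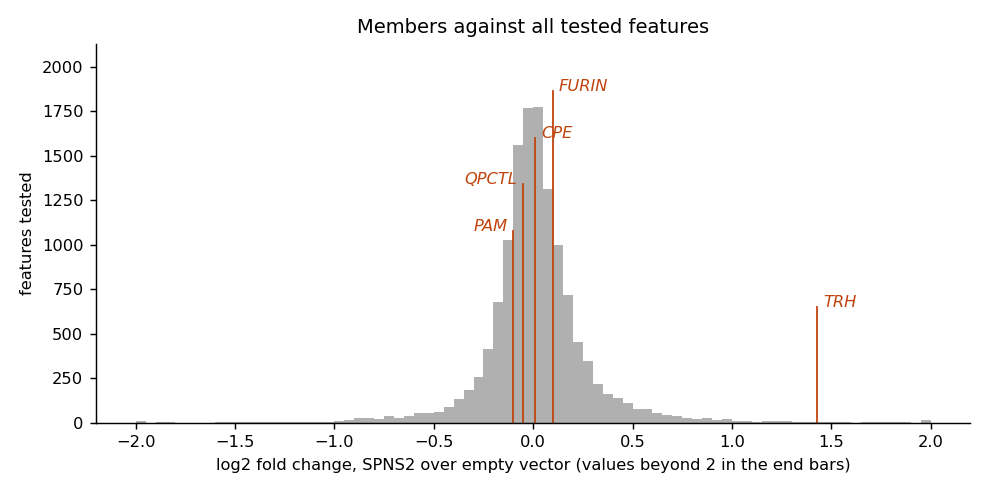
Histogram of the log2 fold change (SPNS2 over empty vector, bins of 0.05, values beyond 2 placed in the end bars) of 13308 tested features, with the 5 members that passed the filter marked by vertical lines. TRH lies far to the right at 1.43, where it was picked, and FURIN, CPE, QPCTL and PAM lie between -0.10 and 0.10, within the bulk of features.

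Other genes of the route were taken from 10 lists by function, chosen with earlier results of these data known. The lists held 187 genes, of which 85 were tested and 52 were listed at 0 in all libraries. Of those tested, 14 were called higher and 14 lower with SPNS2, a share of 32.9% beside 24.5% of all features, with a median log2 fold change of -0.01. Without SPNS2 library 1, and likewise without SPNS2 library 2, 18 of 86 tested list genes were called in place of 28 of 85. Calls over all features fell in those fits too, to 2246 of 13519 and 2352 of 13511, from 3263 of 13308. Whether a list differed from other genes was not tested.

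Among the other convertases, 0 of 5 tested genes passed, by edgeR with Benjamini-Hochberg adjustment, with a median log2 fold change of -0.03. Across all features 24.5% passed. DESeq2 and limma voom also called 0, against 19.1% and 24.3% of all features. At an unadjusted p under 0.05 edgeR had 1, PCSK5, against 36.2% of all features. PCSK5 averaged 1.81 ± 0.0763 CPM with SPNS2 and 2.40 ± 0.259 CPM with the empty vector (SD, n = 3 each). Its log2 fold change was -0.40 (edgeR adjusted p = 0.0718), and its groups did not overlap, as for 40.1% of all features. PCSK6, PCSK7 and MBTPS1, which cleaves sterol regulators in the Golgi, were present at 38.3, 41.9 and 155 CPM with SPNS2 and at 39.1, 44.0 and 159 CPM with the empty vector. The PCSK2 chaperone SCG5 and the PCSK1 inhibitor PCSK1N had at most 15 counts each over 6 libraries.

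Of 4 tested relatives of CPE, 1 was called higher and 2 lower by edgeR. Across all features 11.9% were called higher and 12.6% lower. CPD, a carboxypeptidase of the trans-Golgi network that acts downstream of FURIN, rose to 123 ± 3.22 CPM with SPNS2, against 109 ± 2.38 CPM with the empty vector (SD, n = 3 each; 0.18 on the log2 scale, edgeR adjusted p = 0.00182). AEBP1, a family member thought to be inactive as a peptidase, fell to 5.68 ± 0.379 CPM with SPNS2, against 10.3 ± 0.604 CPM with the empty vector (SD, n = 3 each; -0.86 on the log2 scale, edgeR adjusted p = 6.2e-05). CPXM1, likewise without known peptidase activity, fell by 0.12 on the log2 scale (edgeR adjusted p = 0.0101). All 3 calls also passed when each library was left out. The gene for carboxypeptidase M had 0.502 CPM with SPNS2 and 0.539 CPM with the empty vector.

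Proteins of dense-core granules, the store of peptide hormones in endocrine cells, were mostly too low to test. Of 13 genes, 5 were tested and 1 rose, a share of 20% beside 24.5% of all features. CCDC186, a factor in granule maturation, rose to 16.2 ± 1.26 CPM with SPNS2, against 13.1 ± 0.608 CPM with the empty vector (SD, n = 3 each; 0.31 on the log2 scale, edgeR adjusted p = 0.00754). EIPR1, its partner in that process, was at 33.2 CPM with SPNS2 and 34.3 CPM with the empty vector and was not called. Of the granins, CHGA was listed at 0 and CHGB averaged 0.554 CPM with SPNS2 and 0.674 CPM with the empty vector.

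Of 4 listed enzymes that can break TRH down, the cytosolic PGPEP1 and PREP were expressed and the other 2 were near 0, as was the receptor. TRHR, the TRH receptor, was listed at 0 counts in all 6 libraries, and TRHDE, the ectoenzyme selective for TRH, had 1, 0 and 2 counts with SPNS2 and 1, 2 and 3 counts with the empty vector. PGPEP1L, a relative of PGPEP1, had 13 counts over 6 libraries. PGPEP1, a cytosolic pyroglutamyl peptidase, rose to 88.8 ± 1.99 CPM with SPNS2, against 81.0 ± 3.66 CPM with the empty vector (SD, n = 3 each; 0.13 on the log2 scale, edgeR adjusted p = 0.0255). That call was lost without SPNS2 library 1 (edgeR adjusted p = 0.0582), SPNS2 library 2 (0.0999), empty vector library 2 (0.102) and empty vector library 3 (0.0761). PREP, a cytosolic prolyl peptidase, fell to 57.3 ± 1.99 CPM with SPNS2, against 65.3 ± 1.31 CPM with the empty vector (SD, n = 3 each; -0.19 on the log2 scale, edgeR adjusted p = 0.00256), and passed in all 6 fits without a library.

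**Figure D3:**
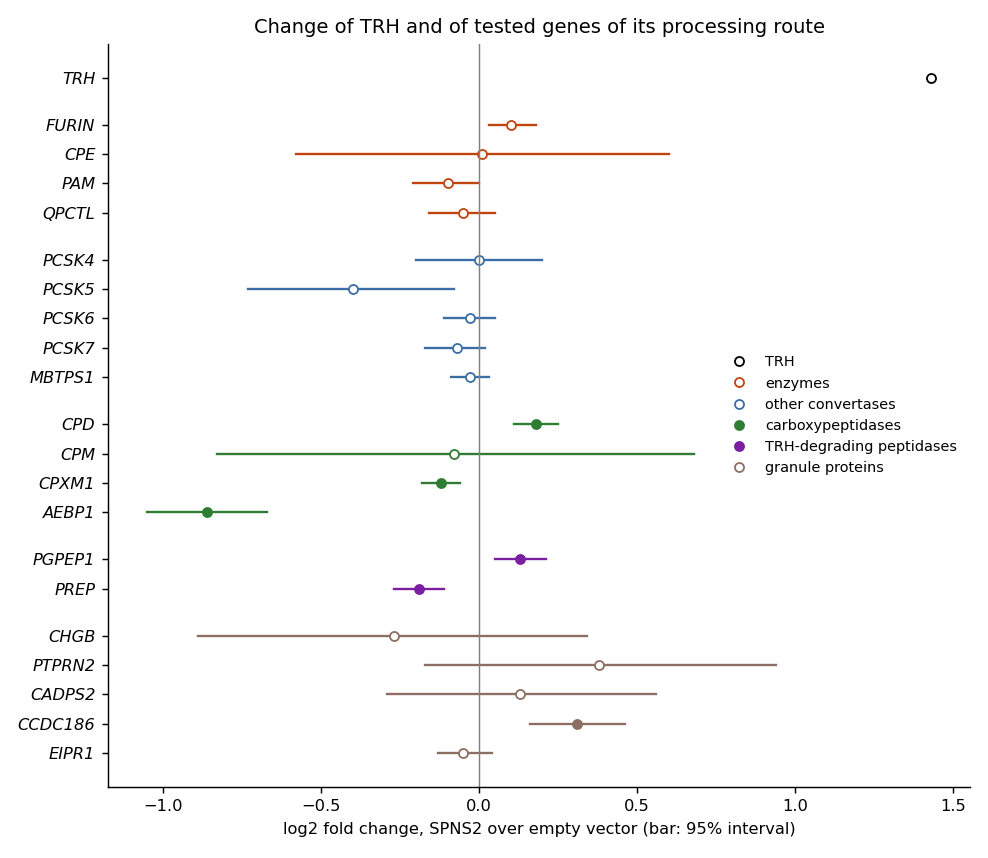
Log2 fold change (SPNS2 over empty vector) of TRH and of the tested genes of its processing and breakdown, by role. Bars are 95% intervals of the edgeR fit, filled points passed an adjusted p of 0.05, and TRH is shown as a point without a test. TRH lies at 1.43, whereas the other genes lie between -0.86 (AEBP1) and 0.38 (PTPRN2, not called), and the axis name CPM is here the carboxypeptidase M gene.

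Much of the thyroid hormone axis was at 0 or too low to test. Of 23 genes, 9 were listed at 0, among them the receptor THRB and the hormone subunits TSHB and CGA. The 9 include RXRB, given above as a case where a listed 0 does not by itself show a missing transcript. Of 10 tested, 2 fell and 0 rose by edgeR, a share of 20% beside 24.5% of all features. The counts were the same for DESeq2, for limma voom and at an unadjusted edgeR p under 0.05. Those rules called 19.1%, 24.3% and 36.2% of all features. THRA, a nuclear receptor for thyroid hormone, fell to 61.8 ± 2.04 CPM with SPNS2, against 69.6 ± 0.384 CPM with the empty vector (SD, n = 3 each; -0.17 on the log2 scale, edgeR adjusted p = 0.00331). RXRA, its dimer partner, was lower, with a log2 fold change of -0.14 (edgeR adjusted p = 0.0407), but did not pass in 5 of 6 fits without a library. Its adjusted p by edgeR was 0.147 and 0.098 without SPNS2 library 1 and 2, and 0.104, 0.11 and 0.0533 without empty vector library 1, 2 and 3. With the replicate number as a block RXRA did not pass either (edgeR adjusted p = 0.0609). The corepressor gene NCOR1 was at 78.4 CPM with SPNS2 and 79.4 CPM with the empty vector and was not called.

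In hypothalamic neurons the TRH gene is driven by cyclic AMP signals through CREB proteins and by leptin through STAT3, and repressed by thyroid hormone receptors. Of 14 genes listed for this control, 10 were tested, 1 rose and 1 fell, a share of 20% beside 24.5% of all features. CRTC1, a CREB coactivator, had 37.4 ± 2.38 CPM with SPNS2 and 33.2 ± 1.52 CPM with the empty vector (SD, n = 3 each; 0.17 on the log2 scale, edgeR adjusted p = 0.0345). The CRTC1 call was lost without SPNS2 library 1 and 2 (edgeR adjusted p = 0.148 and 0.0803) and without empty vector library 1 and 2 (0.112 and 0.091). With the replicate number as a block it was also lost (edgeR adjusted p = 0.0624). CREM, a relative of CREB with activator and repressor forms, was lower by the narrowest margin, at -0.20 on the log2 scale (edgeR adjusted p = 0.04999). It did not pass in 5 of 6 fits without a library (edgeR adjusted p = 0.0943 to 0.175). Those fits left out any SPNS2 library, or empty vector library 2 or 3. CREM also missed with DESeq2 (adjusted p = 0.159), limma voom (0.05017), DESeq2 size factors in edgeR (0.05043) and no filter on low counts (0.0842). With the replicate number as a block it missed as well (edgeR adjusted p = 0.0931). For this list DESeq2 and limma voom each called 1 higher and 0 lower, against 19.1% and 24.3% of all features. STAT3 was at 103 ± 0.915 CPM with SPNS2 and 99.7 ± 0.887 CPM with the empty vector (SD, n = 3 each) and did not pass (edgeR adjusted p = 0.259).

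The 250 bases before the TRH start site are printed because several of these factors have been placed there in rodents. RefSeq gives this stretch as chr3:129974470-129974719 (GRCh38.p14, plus strand), and capitals mark the motif matches.
TRH promoter: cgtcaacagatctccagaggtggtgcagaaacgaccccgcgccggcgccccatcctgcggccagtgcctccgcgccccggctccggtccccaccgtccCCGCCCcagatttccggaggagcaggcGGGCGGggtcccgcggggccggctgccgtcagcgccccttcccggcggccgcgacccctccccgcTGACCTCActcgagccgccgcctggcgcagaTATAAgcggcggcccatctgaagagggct
The element TGACCTCA, which in rodents binds both CREB and thyroid hormone receptors, occurred once, from 60 bases before the start. It occurred on either strand in 1.81% of 35116 RefSeq promoter stretches of that length. The nuclear receptor half-site AGGTCA, held by 12.1% of stretches, matched on the opposite strand within the same element. The GC box GGGCGG matched 2 times and was found in 42.6% of stretches, and TATAA matched once, from 29 bases before the start, and was found in 18.9%. The full cyclic AMP element TGACGTCA (1.65%), the AP-1 site TGANTCA (6.57%) and the RUNX site TGTGGT (11%) had no match in this window. A match is a description of the letters and does not show that a factor bound.

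Precursors of other peptide hormones gave no second case of this kind. Of 63 such genes, 32 were listed at 0, and 12 were tested, with a median log2 fold change of 0.02. By edgeR with Benjamini-Hochberg adjustment 0 rose and 2 fell, a share of 16.7% beside 24.5% of all features. DESeq2 and limma voom likewise called 0 higher and 2 lower, against 19.1% and 24.3% of all features. At an unadjusted edgeR p under 0.05 there were 3 of 12, against 36.2% of all features. Beside those 2 it held GHRL, the ghrelin precursor (log2 fold change 0.34, adjusted p = 0.0725 by edgeR). GAL, the galanin precursor, fell to 8.83 ± 0.583 CPM with SPNS2, against 12.1 ± 0.510 CPM with the empty vector (SD, n = 3 each; -0.46 on the log2 scale, edgeR adjusted p = 0.00137). ADM2, the precursor of a relative of adrenomedullin, fell to 18.4 ± 0.425 CPM with SPNS2, against 22.9 ± 1.49 CPM with the empty vector (SD, n = 3 each; -0.31 on the log2 scale, edgeR adjusted p = 0.00209). GAL and ADM2 also passed when each library was left out.

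Per length, only NPW, the neuropeptide W precursor, was near TRH among these 63 genes. NPW was at 162 ± 2.27 CPM per kb with SPNS2 and 157 ± 13.5 with the empty vector (SD, n = 3 each), with no call for a change (log2 fold change 0.04, adjusted p = 0.566 by edgeR). TRH, at 154 CPM per kb with SPNS2 and 57.4 with the empty vector, was next, and GAL followed at 10.8 with SPNS2 and 14.8 with the empty vector. The order depends on the length used: per kb of coding sequence TRH was at 420 and NPW at 324 with SPNS2, against 156 and 315 with the empty vector. On that scale ADM2, at 41.5 with SPNS2 and 51.7 with the empty vector, lay above GAL, at 23.9 and 32.9.

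**Figure D4:**
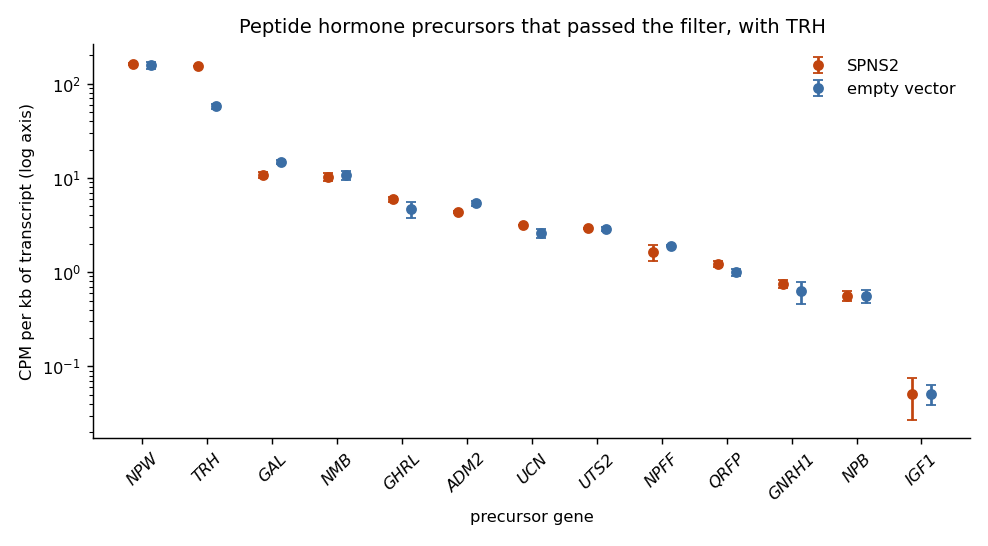
Level in CPM per kb of the longest transcript (log axis) of TRH and the 12 other hormone precursor genes that passed the filter, as mean ± SD of 3 libraries, with SPNS2 to the left of the empty vector at each gene. TRH stands at 154 with SPNS2 and 57.4 with the empty vector, next to NPW at 162 and 157, and the other precursors lie at 14.8 or below.

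Proteins that FURIN-type convertases cleave were mostly expressed and those called changed in both directions. Of 37 genes, 27 were tested, 9 rose and 5 fell by edgeR, with a median log2 fold change of 0.03. That was 51.9% of those tested, beside 24.5% of all features, and whether the list differed from other genes was not tested. DESeq2 called 7 higher and 4 lower, and limma voom 9 and 5, against 19.1% and 24.3% of all features. The widest called changes were of genes at low levels. PDGFA, a growth factor chain, rose to 1.31 ± 0.231 CPM with SPNS2, against 0.773 ± 0.0679 CPM with the empty vector (SD, n = 3 each; 0.75 on the log2 scale, edgeR adjusted p = 0.0268). The PDGFA call was lost without SPNS2 library 2 and 3 (edgeR adjusted p = 0.05049 and 0.109) and without empty vector library 1 and 2 (0.0617 and 0.0747). LRP1, an endocytic receptor, fell to 3.73 ± 0.302 CPM with SPNS2, against 5.88 ± 0.255 CPM with the empty vector (SD, n = 3 each; -0.66 on the log2 scale, edgeR adjusted p = 0.00125), and passed in all 6 fits without a library. TNFSF13, a cytokine of the tumour necrosis factor family, rose by 0.47 on the log2 scale (edgeR adjusted p = 0.0265). The TNFSF13 call was lost on leaving out any SPNS2 library (edgeR adjusted p = 0.0538, 0.0774 and 0.0755) or empty vector library 2 (0.0976). MMP14, a membrane metalloprotease, rose to 75.2 ± 0.766 CPM with SPNS2, against 61.9 ± 3.64 CPM with the empty vector (SD, n = 3 each; 0.28 on the log2 scale, edgeR adjusted p = 0.000655). ITGA6, an integrin subunit, rose by 0.33 and SORL1, a sorting receptor, by 0.20 on the log2 scale, and ADAM15, a membrane metalloprotease, fell by 0.20 on that scale. The calls of MMP14, ITGA6, SORL1 and ADAM15 passed without each single library. TGFB1 and ITGA5 stood at -0.10 and 0.09 on the log2 scale (edgeR adjusted p = 0.0306 each). The TGFB1 call was lost on leaving out SPNS2 library 1, SPNS2 library 3, empty vector library 1 or empty vector library 3 (edgeR adjusted p = 0.0707 to 0.113). The ITGA5 call was lost on leaving out any SPNS2 library or empty vector library 2 or 3 (edgeR adjusted p = 0.0582 to 0.119). With the replicate number as a block the TGFB1 and ITGA5 calls were also lost (edgeR adjusted p = 0.0663 and 0.0659).

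Genes that serve the other processing steps were also examined. PAM needs copper and ascorbate. Of 7 tested genes that supply them or partner PAM, 1 was called, a share of 14.3% beside 24.5% of all features. CCS, a copper chaperone, had 27.2 ± 0.593 CPM with SPNS2 and 24.5 ± 0.495 CPM with the empty vector (SD, n = 3 each; 0.15 on the log2 scale, edgeR adjusted p = 0.025). The CCS call was lost on leaving out any SPNS2 library or empty vector library 2 or 3 (edgeR adjusted p = 0.0508 to 0.0811) and with DESeq2 (0.0946). ATP7A, which loads copper into secretory enzymes, was at 4.27 CPM with SPNS2 and 3.32 CPM with the empty vector (adjusted p = 0.0909 by edgeR). QPCTL modifies CD47, the ligand of SIRPA. CD47 was at 29.9 ± 0.582 CPM with SPNS2 and 29.7 ± 1.42 CPM with the empty vector (SD, n = 3 each) and was not called. SIRPA fell to 84.1 ± 0.422 CPM with SPNS2, against 98.4 ± 2.88 CPM with the empty vector (SD, n = 3 each; -0.23 on the log2 scale, edgeR adjusted p = 0.000446). The chemokines CCL2, CCL7, CCL8 and CCL13, substrates of QPCT or QPCTL, were listed at 0.

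The genes with the pattern nearest to TRH over the 6 libraries were found by Euclidean distance of log2 CPM centred on the empty vector mean. They were ABLIM1, a cytoskeletal protein (distance 0.161), the tryptase gene TPSB2 (0.226), the antiviral gene RSAD2 (0.294), the phosphodiesterase gene PDE9A (0.305), the lipase gene ABHD4 (0.44) and the drug efflux gene ABCB1 (0.446). TPSB2 has a near-identical copy in TPSAB1, so its counts are uncertain. ABLIM1 averaged 47.6 ± 2.84 CPM with SPNS2 and 17.3 ± 0.248 CPM with the empty vector (SD, n = 3 each), a fold change of 2.75 beside 2.69 for TRH. Since TRH was picked for its rise, nearness in this sense means a rise of like size.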

How the data were processed

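The table deposited by the authors gives an estimated count for each gene, and Salmon is named without a version per the submitters' processing notes. RNA had been extracted with a QIAGEN kit and libraries made with a TruSeq Stranded mRNA kit, per the labels. For the genome build, annotation and summing of transcripts, the sources used here name none. All values were whole as deposited. Symbols came from a gene name table for 34329 of 34370 Ensembl identifiers.

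Low counts were removed by filterByExpr (default settings), and the rest scaled by TMM and tested with the edgeR 4.0.16 quasi-likelihood test (R 4.3.3) with group as the only term and Benjamini-Hochberg adjustment over 13308 features. Calls needed an adjusted p under 0.05. Levels are CPM of the TMM-scaled total, lengths are those of the longest GENCODE 29 transcript, and standard errors were derived from the F statistic and the log2 fold change. DESeq2 1.42.0 and limma 3.58.1 (voom) were alternatives. A count of 0 was taken to allow 3 counts. Replicates differed beyond sampling noise (chi-square per degree of freedom 2.90 to 5.88). The fit was also run on simulated counts, whose outcome is not reported here and lends no support to the calls.

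The members and lists were chosen with earlier results of these data known. Named genes are the members, in each list up to 4 with the smallest p and up to 4 with the highest level, list genes listed at 0, SPNS2 as a check of the labels, and the 6 nearest to TRH among genes of at least 1 CPM. Marker genes and PCSK1N, SCG5, TRHDE, PGPEP1L, PDGFA, LRP1 and TNFSF13 were named after their values were seen. Some genes that this rule names are not reported here.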

Additional observations from a re-analysis of the deposited data

How the results depend on the processing

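The log2 fold change of TRH was 1.39 to 1.46 without single libraries and 1.42 to 1.43 in the other alternatives; its direction was fixed by its choice in these libraries and is no sign of stability. The count of enzymes called, 0 with all libraries, was 1 (FURIN) with DESeq2 size factors in edgeR, 1 with no filter on low counts, 1 at a mean CPM of at least 1, 1 with the DESeq2 Wald test and 1 with limma voom, and 0 to 1 without single libraries. FURIN's adjusted p ranged from 0.0132 to 0.187 over these fits. Called pathway genes, 28 with all libraries, numbered 18 to 24 without single libraries (18 without SPNS2 library 1 or 2). All features called numbered 2246 to 2738 in those fits, against 3263 with all libraries. The log2 fold change of CPE, 0.01 and not called, ran from -0.16 to 0.14 without single libraries, below 0 without SPNS2 library 1 (-0.06), SPNS2 library 2 (-0.01) or empty vector library 3 (-0.16); the cause was not tested. Of 20 called list genes tracked, 13 kept their call in each alternative that gave a value. Deviations from the group mean correlated at -0.01931 to 0.03750 between same-numbered libraries and at -0.06443 to 0.03746 between differently numbered ones. From 3 libraries per group these values cannot show whether the replicate numbers pair the samples. With the replicate number as a block, 2723 features were called, against 3263 without it, with 0 enzymes and 23 pathway genes. PCSK2 and QPCT, at 0 to 6 counts per library, could not be compared at this depth.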

Other observations

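The genes next to TRH on chromosome 3 were looked up after the other results were known, in the order of RefSeq genes (GRCh38.p14, used for names and order only). Of the nearby protein-coding genes looked up, 4 were tested. PLXND1, a semaphorin receptor, had 434 ± 7.80 CPM with SPNS2 and 398 ± 7.47 CPM with the empty vector (SD, n = 3 each; 0.12 on the log2 scale, edgeR adjusted p = 0.00451). TMCC1, the nearest neighbour on one side, was at 0.15 on the log2 scale (edgeR adjusted p = 0.0873), ALG1L2, the nearest on the other, at 0.13 (edgeR adjusted p = 0.774) and PIK3R4 at 0.03 (edgeR adjusted p = 0.703). H1-8 was listed at 0, and COL6A5 and COL6A6 had few counts.

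Some rows held values in single libraries that stood apart, named here after they were seen. MMP11, a convertase substrate, had 98, 0 and 263 counts in the SPNS2 libraries and 307, 260 and 207 counts in the empty vector libraries. AZU1, a primary granule gene, had 0, 386 and 0 counts in the SPNS2 libraries and 0 counts in each empty vector library. The cause was not tested.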
